A study of Mus musculus with 10 samples.

Results

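Potassium channel genes were compared between Arid1b+/- mice (HT) and wild-type mice (WT) in the prefrontal cortex at postnatal day 10. The members were protein-coding genes whose symbol begins with Kcn, without antisense or pseudogene symbols, and whose normalised count averaged at least 10 over the 10 samples. They numbered 81 of the 16781 genes tested, namely 68 genes of pore-forming or silent alpha subunits and 13 of auxiliary subunits or regulators. None of the 81 passed a limma adjusted p under 0.05 taken over all genes, and the smallest adjusted p was 0.362, for Kcng1. The alpha subunit genes Kcng1 and Kcnb2 had the smallest p-values of the family and were lower in every HT mouse than in every WT mouse, with HT means at 77.8% and 82.1% of the WT means. Genes without overlap between the genotypes, in either direction, made up 2.47% of the members and 1.62% of all genes tested.

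The samples were 5 HT and 5 WT male mice of the C57BL/6N strain, each sequenced as 1 library and numbered by genotype (HT1, WT1 and so on). HT mice carried 1 copy of a CRISPR allele of Arid1b, a single mouse line, in which a change at exon 5 truncates the protein, and both genotypes came from Arid1b+/- fathers and WT mothers. Arid1b encodes a subunit of the BAF chromatin-remodelling complex. The measurement was poly-A RNA-seq of whole tissue, so that fewer cells of a type and less RNA per cell cannot be told apart. Nothing in the labels assigns the mice to litters or sequencing batches.

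Potassium channels let potassium leave or, for some types, enter the cell along its gradient, and so set the resting potential, the shape of the action potential and the rate of firing. A channel is built from pore-forming alpha subunits, which mix within a subfamily, and the current it carries is tuned by auxiliary subunits. In the developing cortex their genes are used by excitatory neurons, by interneurons and, for a few inward rectifiers and leak channels, by astrocytes, microglia and vessels.

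The targeted gene matched the labels, with Arid1b at 2842 ± 142 (SD, n = 5) normalised counts in WT mice and at 1894 ± 86.6 (SD, n = 5), or 66.6% of that, in HT mice. HT2 stood apart from the other libraries, with 8.43% of its signal on mitochondrial transcripts against 5.15% to 6.76% in the others, the highest astrocyte marker score (1.56) and the lowest cortical glutamatergic marker score (-1.62). The scores are mean z-scores over the markers of a list. HT5 had an astrocyte score of 1.36, WT3 an oligodendrocyte score of -2.17, and HT5, WT3 and WT5 had striatal scores of -1.38, -1.34 and -1.18. WT3 was the highest of the 10 mice for 16 members. All 10 astrocyte markers were higher in HT, 7 of them (70.0%) at an unadjusted p under 0.05, where 4.71% of all genes tested were higher at that p, and their summed levels were 162591 to 207172 in HT and 148126 to 174850 in WT. All 10 microglial markers (3 at an unadjusted p under 0.05), all 10 oligodendrocyte markers (0), 8 of 10 vascular markers (1), 11 of 12 striatal markers (0), 8 of 8 olfactory bulb markers (0), 5 of 8 meningeal markers (0) and 4 of 7 choroid plexus markers (2) were higher in HT too. Of 8 glutamatergic markers 6 were lower in HT, 2 of them at an unadjusted p under 0.05, with sums of 129661 to 145079 in HT and 119321 to 150154 in WT, and of 7 parvalbumin interneuron markers 4 were lower (0). With single mice left out, the astrocyte count at that p ran from 2 (without WT3) to 7 and the microglial count from 0 (without HT2 or HT5) to 7 (without HT3). The oligodendrocyte count at that p rose from 0 to 3, 4 and 5 without HT5, WT1 and WT2, and the striatal count to 6 without HT5. The number of parvalbumin markers lower in HT was 2 without HT5, WT1 or WT2 and 5 without HT3, HT4 or WT3. Without HT2, 5 of 10 vascular, 2 of 8 meningeal and 5 of 8 olfactory bulb markers were higher in HT, and 4 of 8 glutamatergic markers were lower. The defining choroid plexus markers Ttr, Folr1 and Otx2 were not analysed here. The part of these cell types in the results that follow was not tested.

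The annotation lists 94 protein-coding genes of the family, of which 83 were in the table. The 2 that fell below the filter were Kcnn4 (mean 5.57) and Kcne3 (mean 5.48), and the members just above it were Kcnj15 (mean 14.0) and Kcnj13 (mean 15.5). The other 11 (Kcna7, Kcna10, Kcne1, Kcne2, Kcnj1, Kcnk7, Kcnk15, Kcnk16, Kcnk18, Kcnmb3 and Kcnv2) were not analysed here.

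The alpha subunits share one piece of sequence, the selectivity filter, whose backbone oxygens line the narrow part of the pore and pass potassium but not sodium. It is written in the coding sequence as a codon for threonine or serine (ACN, TCN, AGT or AGC), any codon (NNN), a glycine codon (GGN), a codon for tyrosine, phenylalanine or leucine (TAT, TAC, TTN or CTN) and a second glycine codon (GGN). Read in frame on the coding strand of the longest coding sequence of each gene, this pattern was in 68 of 68 alpha subunit genes and in 0 of 13 auxiliary genes, against 913 of 14640 protein-coding genes tested (6.24%). It occurred at 2 places in all 10 two-pore-domain genes, and also in Kcna6 and Kcnh2. A match to the pattern alone does not make a filter, so the 2 places in Kcna6 and Kcnh2 are not to be read as 2 filters. The silent subunits, which make no current of their own, carried it like the others. The 45 bases around the filter are given for 6 of the 7 members with an unadjusted p under 0.05, from the GRCm38 genome with GENCODE coding sequences, each read 5′ to 3′ on the coding strand with the 15 filter bases in capitals. They show which part of the pore the genes have in common and how far Kcnb2 and the silent genes resemble each other. The stretch lies in 1 coding exon in each of these genes except at the first Kcnk6 filter, which an intron divides.
Kcnb2 (chr1:15710031-15710075, plus strand): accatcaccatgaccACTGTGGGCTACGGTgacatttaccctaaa
Kcng1 (chr2:168262626-168262670, minus strand): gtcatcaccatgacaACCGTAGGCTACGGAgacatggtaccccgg
Kcng3 (chr17:83587899-83587943, minus strand): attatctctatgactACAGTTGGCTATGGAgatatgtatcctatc
Kcnn1 (chr8:70850642-70850686, minus strand): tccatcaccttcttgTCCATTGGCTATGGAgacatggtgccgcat
Kcnma1 (chr14:23528398-23528442, minus strand): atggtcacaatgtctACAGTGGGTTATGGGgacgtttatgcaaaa
Kcnk6, first filter (chr7:29225845-29232183, minus strand): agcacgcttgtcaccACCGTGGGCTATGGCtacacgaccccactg
Kcnk6, second filter (chr7:29225521-29225565, minus strand): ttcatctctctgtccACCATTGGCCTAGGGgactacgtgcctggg

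Over these 45 bases the silent genes Kcng1 and Kcng3 each had 31 in common with Kcnb2, and 29 with each other. Kcnn1 had 26 in common with Kcnb2, and Kcnma1 had 31. Kcng1 and Kcnn1 had 30 in common, as did Kcng3 and Kcnma1, so such a resemblance was not particular to Kcnb2 and the silent genes. The 2 filters of Kcnk6 had 20 of 45 bases in common.

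The first question was at what level each member was expressed at this age. Levels are given as WT normalised counts per kilobase of annotated exons, so that genes of different length can be set beside each other. They ran from 2.40 ± 0.343 (SD, n = 5) for the inward rectifier Kcnj15 to 1387 ± 122 (SD, n = 5) for Kcnj10, the inward rectifier of astrocytes that clears potassium around synapses. Kcnj10 was followed by Kcnf1 (1206 ± 66.4), a silent subunit, Kcnj4 (1204 ± 46.5), a strong inward rectifier of neurons, Kcnk1 (1058 ± 75.4), a leak channel, and Kcnj9 (1004 ± 126), a G protein-gated subunit. Kcnf1 and Kcnj4 did not differ beyond their spread, nor did Kcnk1 and Kcnj9. Among the other voltage-gated genes, levels were high for Kcna6 (730 ± 53.6), Kcnc4 (674 ± 40.2), Kcnd2 (570 ± 13.2), Kcnq3 (834 ± 27.5) and Kcnh3 (809.5 ± 55.1). The calcium- and sodium-gated subfamilies were led by Kcnma1 (676.5 ± 22.3), Kcnn1 (149 ± 11.1) and Kcnt1 (445 ± 8.54), and the auxiliary families by Kcnab2 (943 ± 63.6), Kcnip2 (843 ± 65.1), Kcne1l (184 ± 37.9) and Kcnrg (12.3 ± 4.38). The coefficient of variation among WT mice had a median of 9.49% over the 81 genes.

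**Figure D1:**
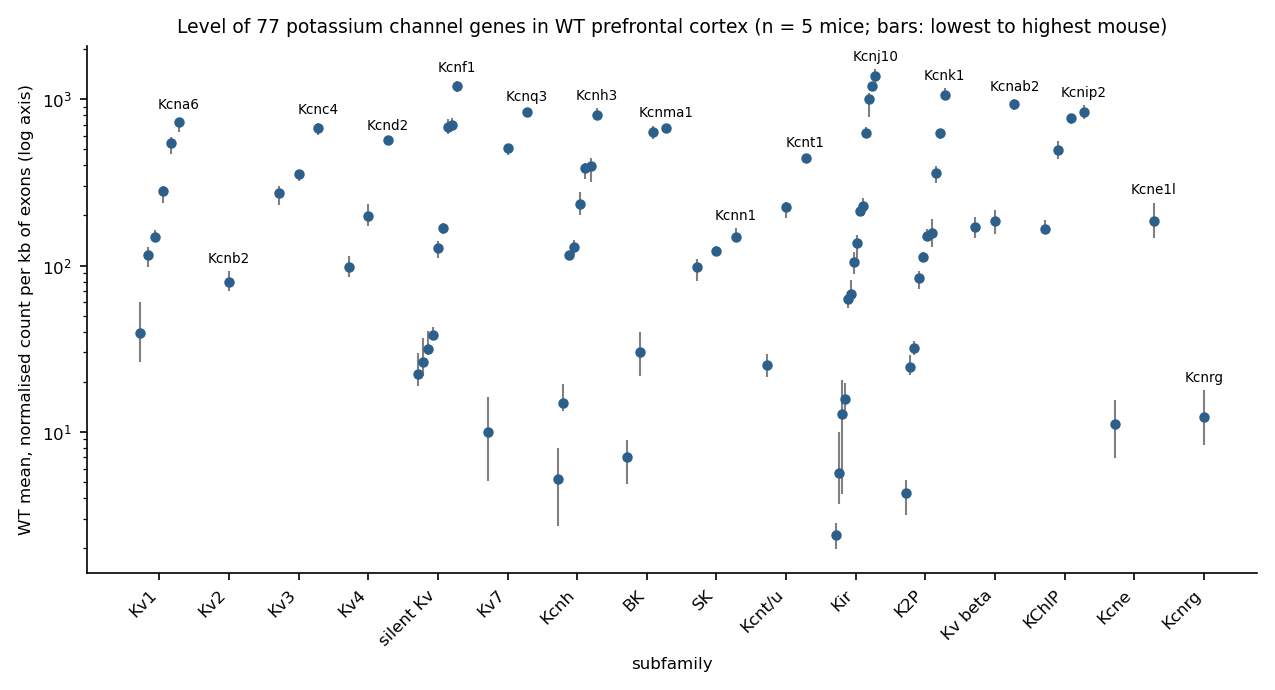
WT mean of 77 of the 81 genes in normalised counts per kilobase of exons (log axis), by subfamily, with bars from the lowest to the highest of 5 WT mice and the highest plotted member of each subfamily named. Most subfamilies hold both high and low members, and Kcnj10 is the highest at 1387.

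The next question was whether the family as a whole differed between genotypes. The median log2 fold change, HT minus WT, was -0.016 over the 81 members and -0.004 over all genes tested, and the median size of the change was 0.068 for the members and 0.082 for all genes. Of the members 48 (59.3%) were lower in HT and 33 higher, beside 51.2% lower among all genes. At a limma adjusted p under 0.05 there were 0 members, against 3 genes or 0.0179% of all tested. At an unadjusted p under 0.05 there were 7 members (8.64%), a share close to the 9.23% of all genes, with 6 lower (4.52% of all genes) and 1 higher (4.71% of all genes). The genotypes were separated without overlap for 2 members (2.47%, against 1.62% of all genes), both of them lower in HT (0.918% of all genes). The intervals show what the data could resolve. The 95% interval of the log2 fold change had a median half-width of 0.19, from 0.10 to 1.03, and it lay within 0.25 on either side of no change for 37 members and within 0.5 for 64.

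**Figure D2:**
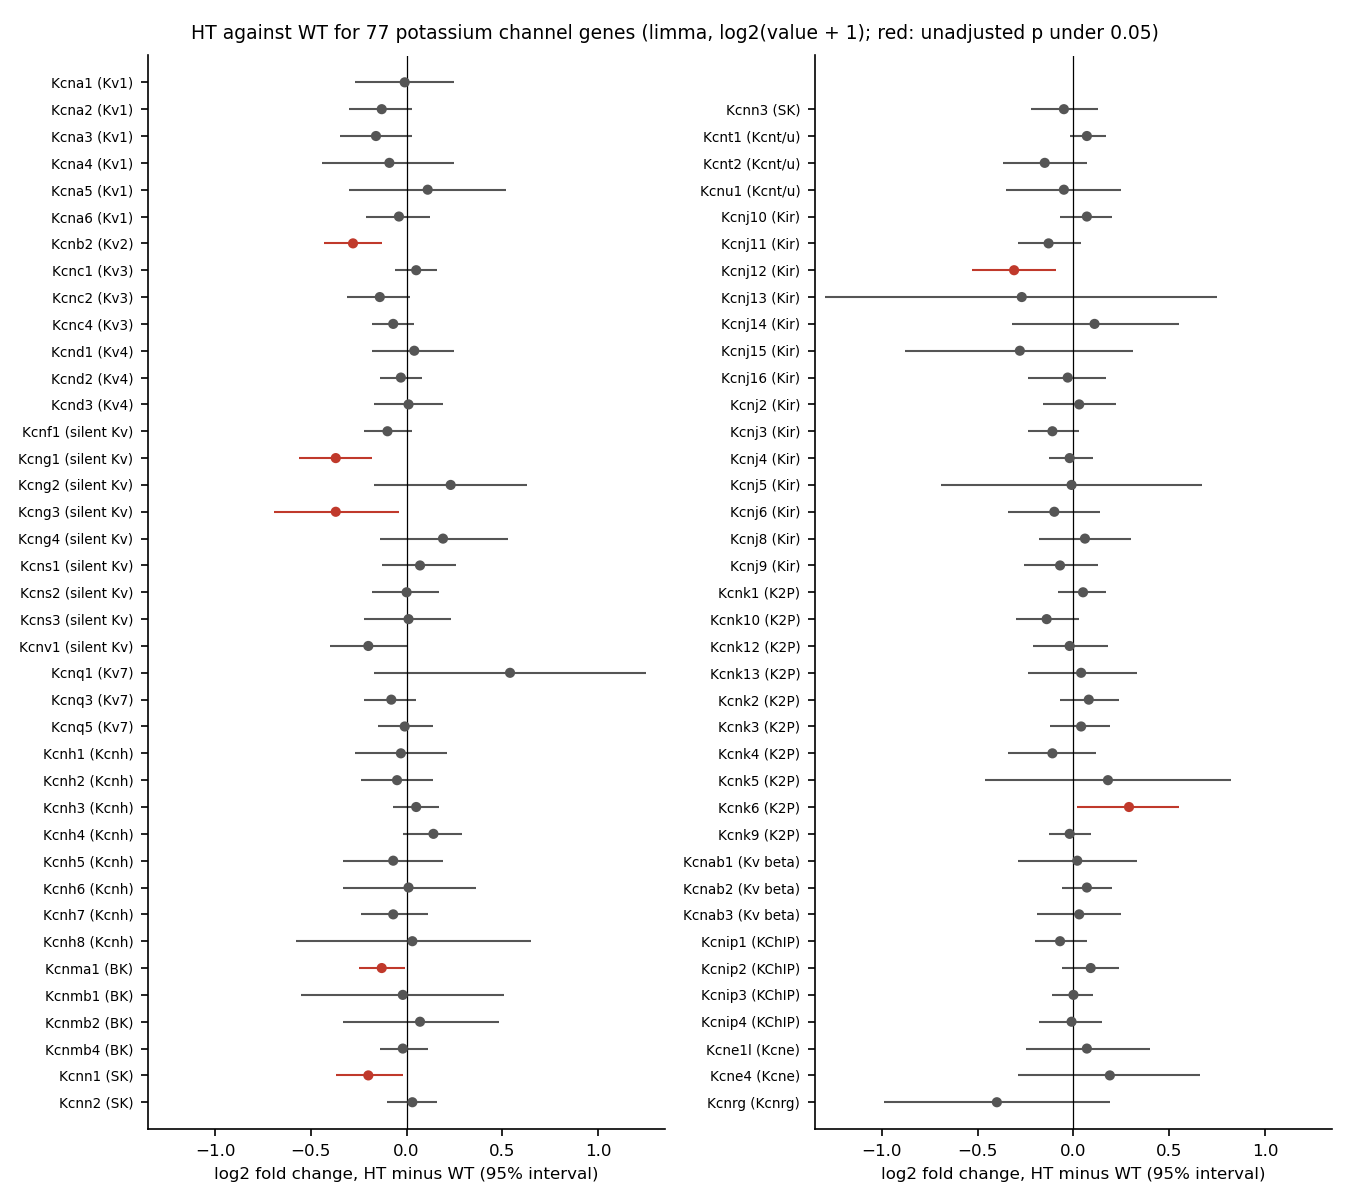
Log2 fold change, HT minus WT, of 77 members with its 95% interval from limma (log2 of value + 1, 5 HT and 5 WT mice), in order of subfamily, with an unadjusted p under 0.05 in red. The 7 red genes are Kcng1, Kcnb2, Kcnj12, Kcnn1, Kcng3 and Kcnma1 below 0 and Kcnk6 above 0, and the widest intervals belong to genes of low level such as Kcnj13 and Kcnq1.

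These counts moved with single mice. Without HT2 there were 4 members at an unadjusted p under 0.05 (Kcnb2, Kcng1, Kcnj12 and Kcnk6), 35 lower and 46 higher, with a median of 0.009, and the share among all genes was 7.19%. Without WT1 there were 4 (Kcnb2, Kcng1, Kcng3 and Kcnj12; 8.60% of all genes), and without WT4 there were 13 (10.9% of all genes). The count without overlap was 4 without HT4, HT5 or WT2 and 5 without WT4. Leaving out a mouse can only keep or raise that count, among members as among all genes. Its share over all genes was not counted in these fits. Kcng1 and Kcnb2 had an unadjusted p under 0.05 in each of these fits. Both were named from these same values, and genes without overlap in all 10 mice stay so when a mouse is left out. HT2 was the lowest of the 10 mice for 30 members (37.0%) and for 21.8% of all genes tested, and its median deviation from the WT means of the members was -0.146 on the log2 scale, against -0.071 in WT4 and -0.048 to 0.027 in the other 8. With the astrocyte marker score as a covariate 2 members had an unadjusted p under 0.05 (Kcnb2 and Kcnj16; 4.80% of all genes), and 30 members were lower and 51 higher. In that fit the limma unadjusted p of Kcnj12, Kcnn1, Kcng3, Kcnk6 and Kcnma1 lay between 0.161 and 0.502. Over the alternatives that kept all mice, the smallest log2 fold changes of these genes were -0.178, -0.138, -0.233, 0.123 and -0.045, in the same order.

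**Figure D3:**
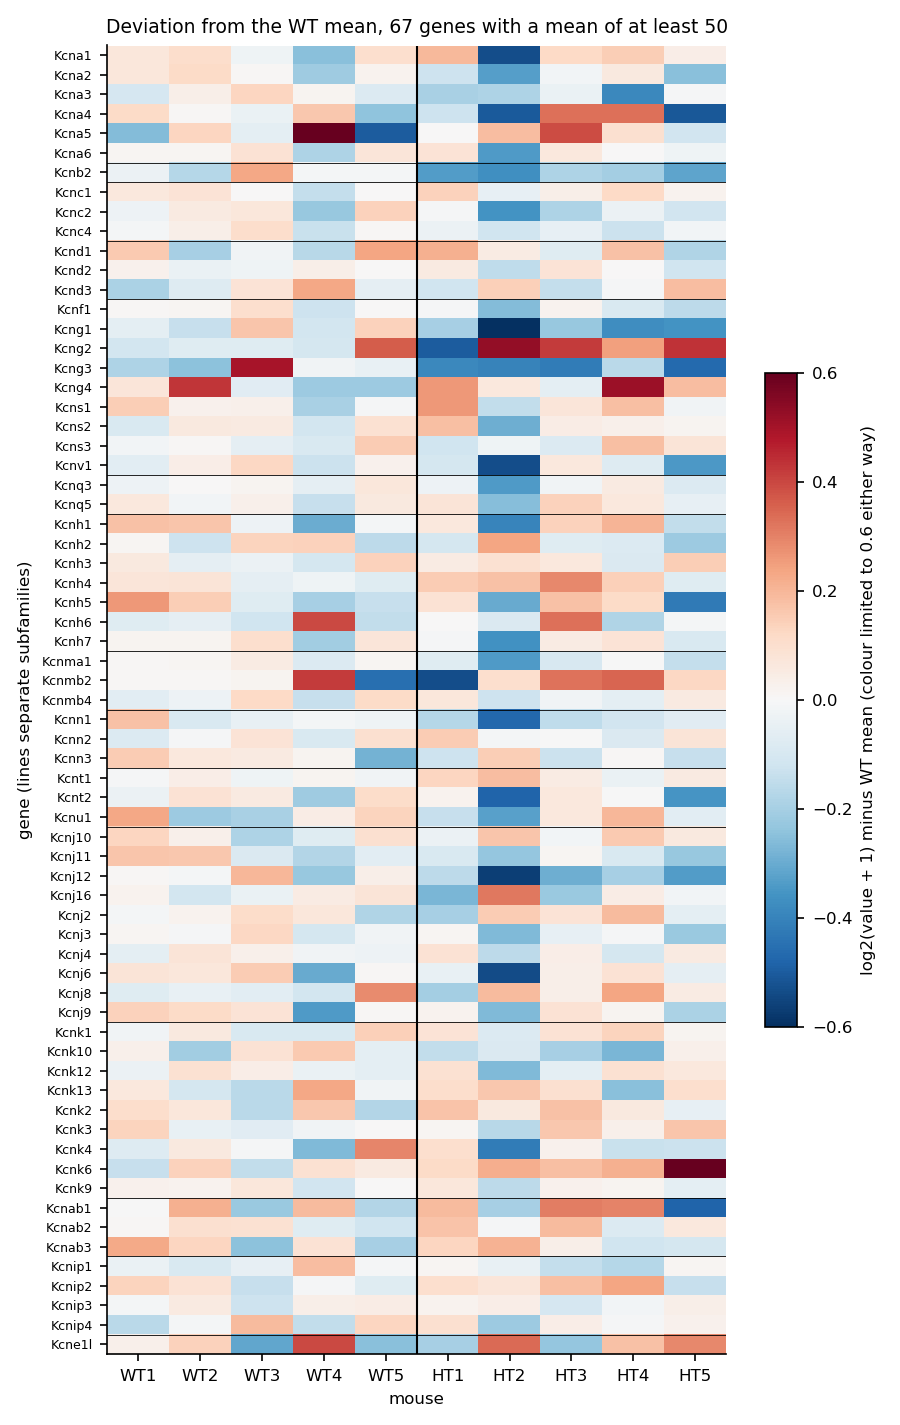
Deviation of each mouse from the WT mean on the log2(value + 1) scale (colour, limited at 0.6 either way) for 67 of the members with a mean of at least 50, in columns by mouse and rows by subfamily. HT2 is the lowest mouse for 30 of all 81 members. The rows of Kcng1, Kcnb2, Kcng3, Kcnj12, Kcnn1, Kcnma1, Kcna3, Kcnc2 and Kcnc4 lie below the WT mean in all 5 HT mice. The row of Kcnk6 lies above it in all 5. Some of these deviations are very small, such as -0.001 for Kcnma1 in HT4, and the matching share of all genes was not counted.

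Kv2 channels carry the delayed rectifier current of the soma and proximal dendrites, and the silent subunits (Kcnf, Kcng, Kcns and Kcnv genes) act by joining Kv2 subunits in mixed channels. Kcng1 (ENSMUSG00000074575, GRCm38 chromosome 2, 168260117 to 168281736, minus strand) is one of these silent genes. Its normalised counts were 2662, 1914, 2608, 2358 and 2385 in HT1 to HT5 and 2933, 2774, 3425, 2833 and 3366 in WT1 to WT5. The highest HT mouse lay below the lowest WT mouse, and HT2 was the lowest of all. The WT mean was 3066 ± 307 (SD, n = 5) and the HT mean 2385 ± 295 (SD, n = 5), and the log2 fold change was -0.37 (SE 0.09; limma adjusted p 0.362). Without HT2 it was -0.29, with a limma unadjusted p of 0.00121, and without WT3, the highest mouse, -0.32 with 0.00345. With the astrocyte marker score as a covariate it was -0.17, with a limma unadjusted p of 0.0539, the only one of 21 alternatives in which this p was above 0.05.

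Kcnb2 (ENSMUSG00000092083, chromosome 1, 15287254 to 15723750, plus strand), a Kv2 pore gene, had normalised counts of 949, 928, 1054, 1038 and 961 in HT1 to HT5 and of 1167, 1062, 1404, 1186 and 1188 in WT1 to WT5. All HT mice lay below all WT mice, with a gap of a few counts between HT3 and WT2, and WT3 was the highest. The log2 fold change was -0.28 (SE 0.07; limma adjusted p 0.389), from a WT mean of 1201 ± 124 (SD, n = 5) and an HT mean of 986 ± 56.4 (SD, n = 5). It stayed below 0 with a limma unadjusted p under 0.05 in 21 of 21 alternatives, between -0.32 and -0.18, and was -0.22 without WT3.

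The other silent genes went both ways. Kcng3 had normalised counts of 66.0, 65.4, 64.5, 77.2 and 62.3 in HT1 to HT5 and of 76.0, 72.9, 122.4, 85.4 and 83.8 in WT1 to WT5, so that HT4 overlapped WT1 and WT2. WT3 was far above the other WT mice. The log2 fold change was -0.37 (SE 0.15; limma adjusted p 0.51), and without WT3 it was -0.24 with a limma unadjusted p of 0.0958. Without HT1, HT2, HT3 or HT5 the fold change kept about its size (-0.36 to -0.34), with p from 0.0505 to 0.0585. Kcnf1 had a log2 fold change of -0.10 and Kcnv1 one of -0.20, while Kcng2 had 0.23 and Kcng4 0.19, with intervals that included 0 for Kcnf1, Kcng2 and Kcng4. For Kcnv1 the limma unadjusted p was 0.0533. Without HT2 Kcnf1 was at -0.06, Kcnv1 at -0.12, Kcng2 at 0.15 and Kcng4 at 0.22. With all mice Kcns1, Kcns2 and Kcns3 lay within 0.07 of no change, and without HT2 they were at 0.12, 0.07 and 0.01.

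**Figure D4:**
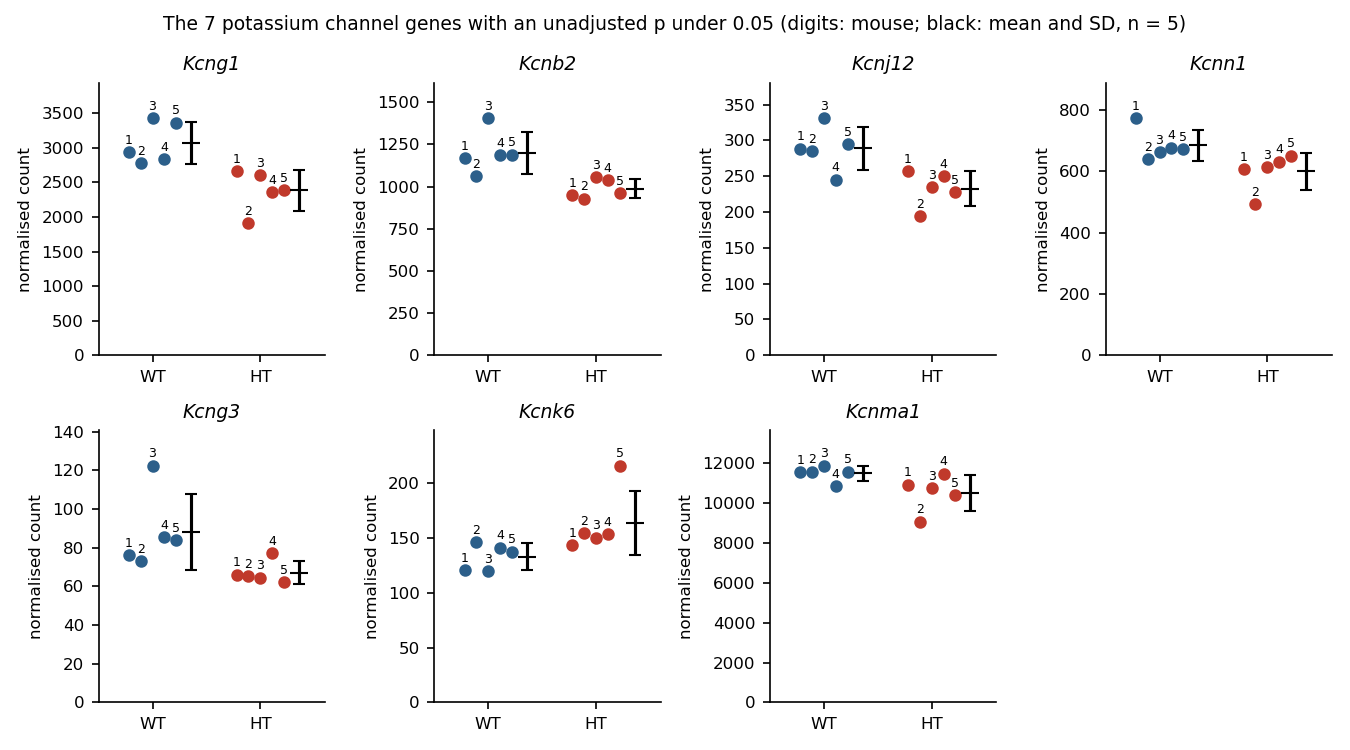
Normalised counts by mouse (points with the mouse number, WT blue, HT red) with mean and SD (black, n = 5) for the 7 members with an unadjusted p under 0.05, each axis from 0. Kcng1 and Kcnb2 are separated between the genotypes, and the other 5 genes overlap.

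Inward rectifiers pass potassium more easily into the cell than out and hold the membrane near its resting potential. Of the 14 measured, 10 were lower and 4 higher in HT mice, their median log2 fold change was -0.05, and 1 (7.14%, against 9.23% of all genes) had an unadjusted p under 0.05. Without HT2, 8 were lower and 6 higher. The gene past that p was Kcnj12 (ENSMUSG00000042529, chromosome 11, 61022564 to 61071131, plus strand), a strong inward rectifier, with 257.4, 194.0, 234.2, 249.9 and 227.7 in HT1 to HT5 and 288.4, 284.9, 330.5, 245.2 and 294.2 in WT1 to WT5. Only WT4 lay within the HT values. The log2 fold change was -0.31 (SE 0.10; limma adjusted p 0.477), and without HT2 it was -0.25 with a limma unadjusted p of 0.0215. Kcnj3, Kcnj6 and Kcnj9, whose products form the channels opened by G protein-coupled receptors, had log2 fold changes of -0.11, -0.10 and -0.07, none with an unadjusted p under 0.05, and without HT2 -0.07, 0.01 and -0.02. Kcnj11, the pore of the ATP-sensitive channel, had -0.13, or -0.10 without HT2. Kcnj10 had 0.07, with an interval from -0.07 to 0.20, and its partner Kcnj16 had -0.03. Without HT2 they were at 0.04 and -0.12. The least abundant, Kcnj13, Kcnj15 and Kcnj5, had intervals more than 1 log2 unit wide. Kcnj14 had 35.6% of its 31-base words in transcripts of other genes and Kcnk4 had 14.7%, so that their values are uncertain.

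Calcium- and sodium-gated channels link spiking to the repolarisation that follows. Kcnma1, the pore of the BK channel, which opens to calcium and voltage together, had 10917, 9072, 10734, 11476 and 10408 normalised counts in HT1 to HT5 and 11539, 11578, 11873, 10851 and 11583 in WT1 to WT5. HT2 was the lowest mouse, and HT1 and HT4 overlapped WT4. The log2 fold change was -0.13 (SE 0.06; limma adjusted p 0.523), and without HT2 it was -0.08 with a limma unadjusted p of 0.0767. Without HT5, WT1, WT2, WT3 or WT5 the fold change was -0.13 to -0.12, with p from 0.0695 to 0.0863. The BK beta subunits Kcnmb1, Kcnmb2 and Kcnmb4 had -0.02, 0.07 and -0.02. Kcnn1, of the small-conductance channels behind the afterhyperpolarisation, had 607.0, 493.2, 614.7, 631.6 and 651.7 in HT1 to HT5 and 772.6, 640.9, 661.9, 677.1 and 672.1 in WT1 to WT5. HT5 overlapped WT2, HT2 was the lowest and WT1 the highest. The log2 fold change was -0.20 (SE 0.08; limma adjusted p 0.51), and without HT2 it was -0.13 with a limma unadjusted p of 0.0705 and without WT1 -0.15 with 0.0847. Kcnn2 had 0.03 and Kcnn3 -0.05, and without HT2 0.03 and -0.10. Kcnt1, the sodium-activated channel of childhood epilepsies, had 0.07 (interval -0.02 to 0.17), its relative Kcnt2 had -0.15, and Kcnu1, best known from sperm, had -0.05. Without HT2 the last pair were at -0.07 and 0.01.

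The two-pore-domain channels carry the leak current. Among the 10 members 4 were lower and 6 higher in HT, or 2 and 8 without HT2, and Kcnk6 (ENSMUSG00000046410, chromosome 7, 29221926 to 29232515, minus strand) was the only member of the family that was higher at an unadjusted p under 0.05. Its normalised counts were 143.6, 154.5, 150.4, 153.7 and 215.9 in HT1 to HT5 and 120.5, 146.0, 119.7, 141.3 and 137.5 in WT1 to WT5. WT2 lay above HT1, and HT5 was far above the other mice. The log2 fold change was 0.29 (SE 0.12; limma adjusted p 0.515). Without HT5 it was 0.18 with a limma unadjusted p of 0.109, and without WT1 or WT3 it was 0.25, with 0.084 and 0.0855. Kcnk6 is used by macrophages and vessels. The microglial marker score was 1.48 in HT5, 1.55 in HT2 and -0.93 to -0.05 in the other 8 mice. The vascular and mural score was 0.31 in HT5, 1.86 in HT2, 0.58 in HT4 and -0.85 to 0.3 in the remaining mice. Whether these cells bear on the Kcnk6 values was not tested. Other leak channels of neurons had 0.05 for Kcnk1, 0.08 for Kcnk2, 0.04 for Kcnk3, -0.02 for Kcnk9, -0.11 for Kcnk4 and -0.14 for Kcnk10, none at an unadjusted p under 0.05. Without HT2 Kcnk1 was at 0.08, Kcnk2 at 0.09, Kcnk3 at 0.09, Kcnk4 at -0.03, Kcnk9 at 0.01 and Kcnk10 at -0.15.

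Kv1 channels sit in axons and hold down repetitive firing. Of 6 genes 5 were lower in HT (median log2 fold change -0.07) and none had an unadjusted p under 0.05. Without HT2 only 2 were lower, and the median was 0.02. Kcna2, the most abundant by count, averaged 6515 ± 544 (SD, n = 5) in WT mice against 5953 ± 660 (SD, n = 5) in HT mice, a log2 fold change of -0.13 with an interval from -0.30 to 0.03. Kcna1 had -0.01, Kcna3 -0.16, Kcna4 -0.09, Kcna5 0.11 and Kcna6 -0.04. Without HT2 Kcna2 was at -0.08, Kcna1 at 0.13, Kcna4 at 0.01 and Kcna6 at 0.03. The beta subunits that travel with Kv1 pores, Kcnab1, Kcnab2 and Kcnab3, had 0.02, 0.07 and 0.03, and without HT2 0.08, 0.09 and -0.02.

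Kv3 channels allow fast spiking by closing quickly after each spike, and Kv4 channels with their KChIP partners carry the transient A-type current of dendrites. Kcnc1, Kcnc2 and Kcnc4 had log2 fold changes of 0.05, -0.14 and -0.07. Kcnd1, Kcnd2 and Kcnd3 had 0.04, -0.03 and 0.01, and the interval of Kcnd2 ran from -0.14 to 0.08. The KChIP genes Kcnip1 to Kcnip4 had -0.07, 0.09, -0.00 and -0.01. None of these 10 genes had an unadjusted p under 0.05. Without HT2 Kcnc2 was at -0.09, Kcnd2 at 0.01, Kcnd3 at -0.02 and Kcnip4 at 0.04. Antisense genes of Kcnd3 and Kcnmb4 were in the table as rows of their own. The use of strand in the counting is not given in the sources used here. Reads of a gene and its antisense partner may therefore not have been fully separated.

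Kv7 channels carry the M current, a slow brake on firing that acetylcholine releases. Kcnq3, which encodes a subunit of the M channel, averaged 12259 ± 404 (SD, n = 5) normalised counts in WT mice against 11609 ± 1152 (SD, n = 5) in HT mice. Its log2 fold change was -0.08 (interval -0.22 to 0.05), and that of Kcnq5 was -0.01. Without HT2 they were -0.02 and 0.06. Kcnq1, chosen after its values were seen, had the largest change of any member, 0.54 (SE 0.33; limma adjusted p 0.602), on counts of 35.3 to 70.4 in HT and 20.7 to 66.3 in WT that overlapped widely. It shares its locus with the antisense gene Kcnq1ot1, which had a mean of 1155 over the 10 mice. In the Kcnh subfamily, voltage-gated channels of the EAG, ERG and ELK types, 4 of 8 genes were lower and 4 higher, from -0.07 for Kcnh5 and Kcnh7 to 0.14 for Kcnh4, and none had an unadjusted p under 0.05. The number lower was 2 without HT2 or HT5 and 6 without WT5, and without HT2 Kcnh5 was at -0.01 and Kcnh7 at 0.01. The smallest families gave 0.07 for Kcne1l and 0.19 for Kcne4, and -0.40 for Kcnrg, a low gene with an interval from -0.99 to 0.19.

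Members were also grouped by use rather than by sequence. Of 14 members known from epilepsy in people, 11 were lower in HT and 3 higher, the median log2 fold change was -0.04, and 1 (Kcnma1) had an unadjusted p under 0.05. Without HT2, 7 of the 14 were lower, with 0 at that p. Of 7 Kv1, Kv3 and beta genes of fast-firing axons, 5 were lower and 0 had an unadjusted p under 0.05, and without HT2 3 were lower. Of 10 glial, vascular and choroid plexus channels 8 were tested, with 5 higher, 3 lower and 1 (Kcnk6) at an unadjusted p under 0.05. Without HT1 only 1 of these 8 was lower. Among all genes 51.2% were lower, and 9.23% had an unadjusted p under 0.05.

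Genes that work with these channels were counted in the same way. Of 34 listed partners 32 were tested, of which 26 (81.2%, against 51.2% of all genes) were lower and 6 higher in HT mice. Without HT2, 19 were lower and 13 higher. Their median log2 fold change was -0.04, with 3 (9.38%, against 9.23% of all genes) at an unadjusted p under 0.05 and 0 at an adjusted p under 0.05. The 3 became 1 without HT2, HT5 or WT2. All 7 Kv1 complex genes, such as Lgi1 and Cntnap2, were lower, between -0.10 and -0.04, and 0 of them had an unadjusted p under 0.05. Without HT2 4 of the 7 were lower, and Adam23 and Cntn2 were at 0.02. All 4 HCN genes, which encode the hyperpolarisation-activated cation channels, were lower, and 3 of the 4 without HT5 or WT4. Hcn3 had 855, 802, 1004, 806 and 880.1 normalised counts in HT1 to HT5 and 1120.4, 934, 1118, 1089 and 996 in WT1 to WT5. HT3 overlapped WT2 and WT5, and the log2 fold change was -0.28 (SE 0.07; limma adjusted p 0.414). Abcc8, the sulfonylurea receptor that joins Kcnj11, had -0.20 (SE 0.09; limma adjusted p 0.511), and Tmem175, a lysosomal potassium channel, had -0.11 (SE 0.05; limma adjusted p 0.531). Without HT2 Abcc8 was at -0.15 and Tmem175 at -0.10, with unadjusted limma p-values of 0.0905 and 0.0807. Of the 9 sodium-potassium pump genes 5 were lower and 4 higher, with 0 at an unadjusted p under 0.05, and 3 were lower without HT2 or WT2.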

How the data were processed

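Groups, replicate numbers and age came from the sample titles and labels. Per the labels and the study's methods, the authors made stranded poly-A libraries, estimated transcript abundance with Salmon 1.1.0 on GRCm38 with GC-bias correction, summed it to genes with tximport and normalised it by DESeq2 1.30.1 size factors. The deposited values are thus a normalised signal, called normalised count here. Totals were 31106330 to 32106791 per sample, and only 13.1% to 36.3% of values under 30 were whole multiples of a step (tolerance 0.05), so depth is unknown and no planned count test was run.

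Values were tested as log2(value + 1) with limma 3.58.1 in R 4.3.3 (eBayes with a trend, genotype only) over the 16781 of 18216 genes with a mean of at least 10, with Benjamini-Hochberg adjustment over all of them. The scale understates changes of low genes. Of the gene identifiers 18205 were in GENCODE M21 (GRCm38). Fits were tested on simulated data.

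The members and gene lists were chosen with earlier results of these data known. The naming rule was Arid1b, each member with an unadjusted p under 0.05 or no overlap, the highest member per kilobase of each subfamily, and partners with an unadjusted p under 0.05. Other members are named to complete their subfamily, and some that entered the counts are not reported one by one here. Alternatives were other pseudocounts, filters, scalings and variance models, sample weights, a replicate block, marker-score covariates, and each mouse left out. Replicate numbers 1 to 5 occur in both groups but belong to different mice.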

Additional observations from a re-analysis of the deposited data

Results flagged for a closer look

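Within groups of 5 mice, 5 values lay far from the other 4, by the gap to the nearest mouse as a share of the group's range (critical value 0.71). In 42 groups examined chance would give about 2.1. Kcng3 was 77.2 in HT4 against 62.3 to 66.0 in the other HT mice (0.753) and 122.4 in WT3 against 72.9 to 85.4 in the other WT mice (0.748). Kcnk6 was 215.9 in HT5 against 143.6 to 154.5 (0.849). Kcnn1 was 493.2 in HT2 against 607.0 to 651.7 (0.718) and 772.6 in WT1 against 640.9 to 677.1 (0.725).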

How the results depend on the processing

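No potassium channel gene passed an adjusted p under 0.05 in any alternative, or an adjusted p under 0.1, and the number of genes that did so overall was 3 or 4. The number of members at an unadjusted p under 0.05 was 7, with 4 to 13 when single mice were left out and 2 with the astrocyte score as a covariate. The number without overlap was 2, with 2 to 5 when single mice were left out. That number can only stay or rise when a mouse is left out, and the matching share of all genes was not counted. The astrocyte covariate turned the direction of Kcna6 (0.088), Kcnd2 (0.076), Kcne1l (-0.212), Kcnf1 (0.01), Kcnj10 (-0.044) and Kcnq3 (0.02), and sample weights that of Kcnd2 (0.007). Leaving out single mice moved Kcna6 between -0.091 and 0.03, Kcnd2 between -0.054 and 0.005 and Kcne1l between -0.004 and 0.174. The cause was not tested. A filter at a mean of 50 removed Kcnrg.

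With the replicate block 8 members had an unadjusted p under 0.05, 6 of them among the 7, with Kcnq1 and Kcnv1 added and Kcnma1 lost. The labels tie the numbers to no litter or batch. Same-numbered mice had correlations of deviations from -0.041 to 0.101 (mean 0.0375, against -0.00909 for other HT and WT pairs), so the numbers were not taken to pair the mice, although 5 of 10 correlated best with their own number, a hint from the data and not the design. Depth is unknown, so precision rests on the spread between mice.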
